A study of Arabidopsis thaliana with 24 samples.

Results

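Pistils of the 35S::PIF4 overexpressor were compared with Col-0 pistils at high ambient temperature (hAT), across all genes. The comparison used 8 of the 24 libraries of the series, 4 of 35S::PIF4 and 4 of the wild type Col-0. They were chosen by their labels of genotype and temperature and not by any measured value. Both genotypes were Arabidopsis thaliana plants grown with days of 21 °C and nights of 18 °C (nAT) until they began to flower and then moved to hAT, with days of 28 °C and nights of 24 °C, under 16 h of light and 8 h of dark. 35S::PIF4 carries PIF4 behind the constitutive 35S promoter and is a single line, so that an effect of PIF4 and one of the line's other differences cannot be told apart. Pistils were taken before anthesis, at flower stages 11 and 12. The paper places their ovules at stage FG7, which it calls mature. The sources used here do not give the share of each flower stage in a library, and the stage of the embryo sacs was not tested here. The other 16 libraries are the loss-of-function mutant phyB-9 (phyB) at hAT and all 3 genotypes at nAT, again 4 libraries each, and enter here only where they are named. The methods speak of 4 biological replicates and do not say how many plants each pooled. The sample records name ovules as the extracted material whereas the methods name whole pistils.

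PIF4 is a basic helix-loop-helix transcription factor of the phytochrome-interacting factors. Phytochrome B in its active form holds these factors back, and warmth inactivates phytochrome B, so that PIF4 drives the elongation growth of seedlings in warm conditions, largely through auxin genes. A separate system, the heat shock response, is set off when proteins unfold: HSFA1 transcription factors activate genes for chaperones, among them further HSFs. The small heat shock proteins keep unfolded proteins from clumping, HSP70 and HSP90 refold them with their co-chaperones, and HSP101 pulls aggregates apart.

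In 35S::PIF4 pistils at hAT, genes of the heat shock response were far higher than in Col-0 at the same temperature. Of 78 tested genes for heat shock proteins, co-chaperones and heat shock factors, 49 were higher and 0 were lower, with 15 of 18 small heat shock protein genes among them. Over all tested genes, 1.61% were higher and 1.64% lower. Of the genes that PIF4 is known to induce in seedlings, 3 of 23 were higher. Genes for small secreted proteins were lower in part, and the cells that express them were not tested. Of 183 defensin-like genes, 84 passed a filter on low counts, with 19 lower and 0 higher. Some members of the heat shock, defensin-like and other lists passed this filter only through the genotype in which they are higher.

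Across all genes, 20590 were tested. A gene was called higher or lower when its adjusted p in edgeR's quasi-likelihood test was under 0.05 and its log2 fold change at least 1 in size. By this rule 332 genes (1.61%) were higher and 338 (1.64%) lower in 35S::PIF4, and the median log2 fold change of all tested genes was 0.0014. The adjusted p alone was under 0.05 for 8931 genes, 4473 of them higher and 4458 lower. The rises reached further than the falls. Among the genes called higher, 48 had a log2 fold change of at least 3 and 24 of at least 5, and the median was 1.37. Among the genes called lower, 11 fell by at least 3 and 8 by at least 5 on the log2 scale, and the median was −1.23. Summed over the genes called higher, the level was 24160 CPM (counts scaled by library size in the CPM unit, with TMM factors) in 35S::PIF4 and 6299 CPM in Col-0. Over those called lower it was 2411 CPM in 35S::PIF4 and 6062 CPM in Col-0. The libraries held 19421636 to 22106467 counts in 35S::PIF4 and 19868048 to 23916083 in Col-0. The mean length of the genes that the counts fell on was 2168 to 2211 bases in 35S::PIF4 and 2158 to 2190 bases in Col-0.

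**Figure D1:**
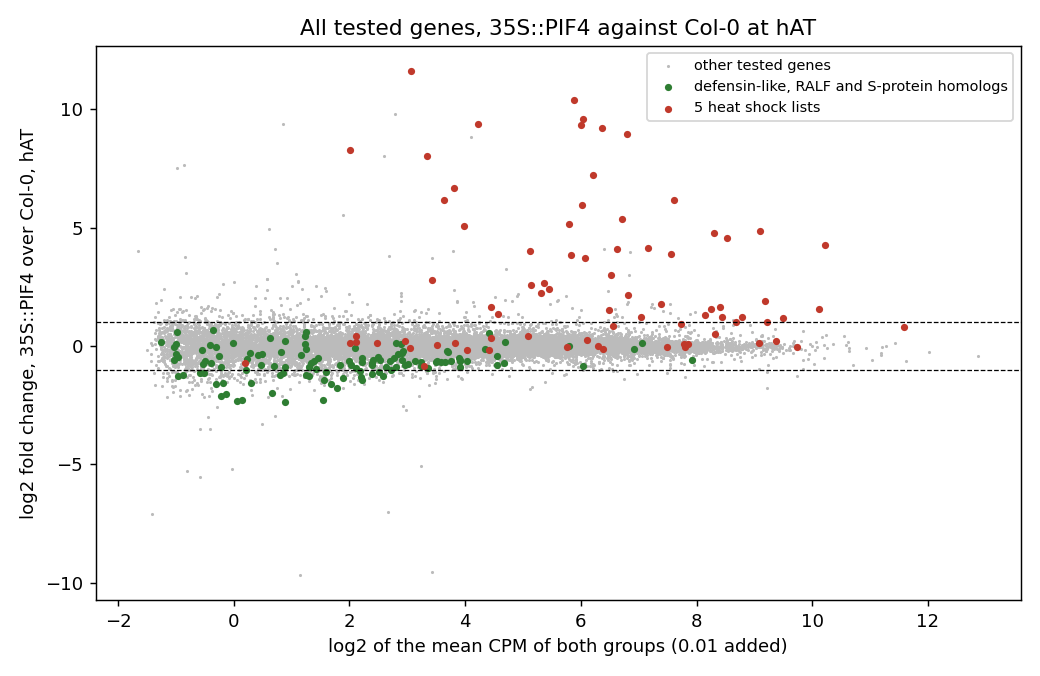
Each point is 1 of the 20590 tested genes, with the log2 of its mean CPM over both groups (0.01 added) on the horizontal axis and the log2 fold change of 35S::PIF4 over Col-0 at hAT on the vertical axis. Dashed lines mark a log2 fold change of 1 and −1. Members of the 5 heat shock lists (red) fill most of the upper part of the plot, and small secreted proteins (green) lie mostly below 0.

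PIF4 itself (AT2G43010, chromosome 2 from 17886101 to 17889087 on the TAIR10 build, the build of all positions given here) was measured at 3.55, 4.56, 4.38 and 5.17 CPM in the 4 libraries of 35S::PIF4 and at 2.84, 2.09, 2.41 and 2.41 CPM in those of Col-0. Every 35S::PIF4 library was above every Col-0 library, but the excess was small. The log2 fold change was 0.87 (with SE, its standard error, of 0.15, and adjusted p = 3.86e-06), under the fold threshold. The phyB mutant, which carries no transgene, had 3.79 ± 0.253 CPM at hAT (SD, n = 4), and 35S::PIF4 differed from it by 0.23 (adjusted p = 0.193). At nAT PIF4 had 5.96 ± 0.319 CPM in 35S::PIF4 and 2.09 ± 0.645 CPM in Col-0 (SD, n = 4 each). This gave 1.46 on the log2 scale (adjusted p = 5.57e-07). The difference between the effects at hAT and at nAT was −0.60 (SE 0.25, adjusted p = 0.0391). It missed the threshold with RLE size factors (−0.52, adjusted p = 0.0664) and with an offset for gene length (−0.11, adjusted p = 0.686). It also missed the threshold without replicate 1 or 3 of 35S::PIF4 or replicate 1, 3 or 4 of Col-0 at hAT, and without replicate 2 of 35S::PIF4 or replicate 1 or 2 of Col-0 at nAT, with differences of −0.61 to −0.43 and adjusted p of 0.0536 to 0.0878.

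In the list of phytochromes and PIFs, which includes PIF4, no gene passed the fold threshold, with 0 of 18 called and a median log2 fold change of 0.31. PHYB had 126 ± 6.23 CPM in 35S::PIF4 and 105 ± 2.5 CPM in Col-0 (SD, n = 4 each), and PIF5, the closest relative of PIF4, 21.2 ± 2.1 CPM against 11.9 ± 0.851 CPM. Their log2 fold changes were 0.29 and 0.86.

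The promoters of some heat shock genes are shown before their levels, because heat shock factors bind a short repeated element (HSE) built of GAA units in alternating orientation. In the 250 bases before the annotated gene start, taken from the RefSeq genome of the same build, a pair of units (GAANNTTC or TTCNNGAA, where the same letters can count in overlapping pairs) was found in 38.8% of the 49 heat shock genes called higher (19 genes) and in 10.3% of the 29 not called (3 genes). Among all 19814 promoters of tested genes with such a sequence the share was 15.6%. Elements of 3 alternating units were found in 14.3% of the 49 (7 genes), in none of the 29 and in 0.414% of all. Sequences for 6 genes with large rises are given 5′ to 3′ on the strand of the gene, ending at the base before its annotated start, with HSE matches in capitals. The first 5 hold matches, unlike most of the 49, and HSP22.0 shows a promoter with none in a gene that rose as steeply. Promoters without a match include those of HSP17.8, HSP90-1, CLPB1 and all 8 HSP70 genes called higher.

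HSP17.4A, chr3:16984868-16985117, minus strand: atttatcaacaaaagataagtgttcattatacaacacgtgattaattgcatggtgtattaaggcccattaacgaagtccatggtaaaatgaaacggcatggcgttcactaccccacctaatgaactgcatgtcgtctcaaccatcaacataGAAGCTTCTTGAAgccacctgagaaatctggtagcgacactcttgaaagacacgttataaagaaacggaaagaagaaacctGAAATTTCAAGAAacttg
HSP17.6C, chr1:19980049-19980298, plus strand: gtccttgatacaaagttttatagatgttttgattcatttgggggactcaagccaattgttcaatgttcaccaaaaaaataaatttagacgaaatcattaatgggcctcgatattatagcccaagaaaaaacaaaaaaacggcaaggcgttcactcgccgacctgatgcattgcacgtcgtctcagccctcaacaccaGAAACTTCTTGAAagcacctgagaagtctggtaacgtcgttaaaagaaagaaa
HSFA2, chr2:11135374-11135623, plus strand: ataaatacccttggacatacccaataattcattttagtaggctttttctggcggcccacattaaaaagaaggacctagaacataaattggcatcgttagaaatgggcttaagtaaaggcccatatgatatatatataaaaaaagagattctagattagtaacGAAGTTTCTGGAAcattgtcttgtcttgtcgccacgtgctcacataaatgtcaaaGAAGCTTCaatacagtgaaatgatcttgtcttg
HSFA7A, chr3:19264891-19265140, plus strand: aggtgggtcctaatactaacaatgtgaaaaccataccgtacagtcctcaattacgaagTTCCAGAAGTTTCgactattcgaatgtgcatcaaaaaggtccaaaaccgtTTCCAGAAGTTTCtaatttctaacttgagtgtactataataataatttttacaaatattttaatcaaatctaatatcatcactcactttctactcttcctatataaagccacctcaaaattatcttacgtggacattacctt
APX2, chr3:2955906-2956155, plus strand: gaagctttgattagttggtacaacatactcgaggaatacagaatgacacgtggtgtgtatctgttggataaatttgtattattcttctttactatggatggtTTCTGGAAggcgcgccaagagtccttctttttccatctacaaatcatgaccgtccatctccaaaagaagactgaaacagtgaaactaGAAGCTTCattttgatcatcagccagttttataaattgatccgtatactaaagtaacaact
HSP22.0, chr4:6370088-6370337, plus strand: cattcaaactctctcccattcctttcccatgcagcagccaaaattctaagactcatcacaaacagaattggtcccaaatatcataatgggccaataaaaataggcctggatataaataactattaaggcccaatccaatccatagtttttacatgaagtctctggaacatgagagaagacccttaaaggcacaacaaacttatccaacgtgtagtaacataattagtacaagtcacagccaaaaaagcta

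HSP17.4A and HSFA7A each held 2 elements of 3 units, HSP17.6C and HSFA2 held 1 each, and APX2 held 2 separate pairs. PIF factors bind the G-box CACGTG and the PBE box CACATG, searched on both strands. A G-box lay in 13.6% of the promoters of genes called higher and in 4.97% of those called lower, against 7.37% of all promoters. The PBE box lay in 12.9% of promoters of genes called higher, in 9.94% of those called lower and in 11% of all. Among the 49 heat shock genes called higher, 12.2% held a G-box and 4.08% a PBE box. Among the 29 not called, the shares were larger, at 17.2% and 13.8%. A match is a description of these letters and does not show binding.

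The small heat shock proteins gave the steepest rises, with a median log2 fold change of 6.44 over 18 tested members, and their summed level was 1803 ± 72.3 CPM in 35S::PIF4 and 54.7 ± 0.859 CPM in Col-0 (SD, n = 4 each). HSP17.6C, a cytosolic member (AT1G53540), had 118, 117, 115 and 121 CPM in 35S::PIF4 and 0.0388, 0.139, 0.127 and 0.0389 CPM in Col-0. The gene was near silent in each Col-0 library and at a similar high level in each 35S::PIF4 library (log2 fold change 10.41, SE 0.10, adjusted p = 6.58e-53). HSP17.8 (AT1G07400), also cytosolic, started from a measurable level. It had 408, 369, 372 and 397 CPM in 35S::PIF4 and 4.93, 5.48, 5.03 and 6.07 CPM in Col-0, which was 72.9-fold higher in 35S::PIF4 (log2 fold change 6.19, SE 0.05, adjusted p = 1.84e-57).

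Members of this family sent to other compartments rose as well. HSP21 (AT4G27670), the chloroplast member, had 15.37 to 17.85 CPM in 35S::PIF4 and no count in any Col-0 library. With 1487 counts in all against a floor of 3 counts over the group, it was at least 538.5-fold higher in 35S::PIF4. HSP22.0 (AT4G10250), the member of the endoplasmic reticulum, had 133, 123, 128 and 139 CPM in 35S::PIF4 and 0, 0.186, 0.254 and 0.233 CPM in Col-0. HSP23.6 (log2 fold change 9.33), HSP23.5 (5.18) and HSP26.5 (6.68) of mitochondria and HSP15.7 of peroxisomes (5.06) were higher too, with adjusted p of at most 1.48e-35. In none of these did a 35S::PIF4 library overlap with a Col-0 library, as was also true of 16.7% of all tested genes in the upward direction. HSP14.7, HSP21.7 and HSP15.4 were the members not called. Their log2 fold changes were 0.21, 0.11 and −0.85, and HSP15.4 had 6.91 ± 1.34 CPM in 35S::PIF4 and 12.7 ± 0.542 CPM in Col-0 (SD, n = 4 each).

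Of the HSP70 family, 8 of 17 tested members were higher, and the median log2 fold change was 0.80. The cytosolic MED37C (AT3G12580, also known as HSP70-4) had 2325, 2311, 2186 and 2264 CPM in 35S::PIF4 and 124, 127, 115 and 110.3 CPM in Col-0. These levels lay 19.4-fold apart (log2 fold change 4.28, SE 0.03, adjusted p = 6.21e-59). HSP70-5 and HSP70-8 followed with log2 fold changes of 4.09 and 3.84. MED37E (AT5G02500, HSP70-1), the main constitutive form, had 3869 ± 63 CPM in 35S::PIF4 and 2263 ± 47.9 CPM in Col-0 (SD, n = 4 each), a difference of 0.80 under the fold threshold. Per kilobase of transcript MED37E stayed the most abundant of these genes, at 1514 CPM in 35S::PIF4 and 886 CPM in Col-0, while MED37C stood at 901 CPM per kilobase in 35S::PIF4 and 47.2 CPM per kilobase in Col-0.

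The organelles differed within this family. The mitochondrial HSP70-10 (log2 fold change 1.56) and the chloroplast HSP70-7 (1.305) were higher, whereas their relatives HSP70-9 and HSP70-6 had 0.08 and 0.50. The BiP chaperones of the endoplasmic reticulum, MED37A, BIP and MED37B, had log2 fold changes of 0.21, 0.14 and −0.72. In the list of folding genes of the endoplasmic reticulum, which includes these 3, 0 of 16 passed the fold threshold, with a median of 0.02.

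Among HSP90 and HSP100 genes, 7 of 10 were higher, with a median log2 fold change of 1.37. HSP90-1 (AT5G52640), the heat-inducible cytosolic HSP90, had 1061, 1047, 1035 and 1066 CPM in 35S::PIF4 and 36.3, 37.5, 37.4 and 37.8 CPM in Col-0. It was 28.7-fold higher in 35S::PIF4 (log2 fold change 4.84, SE 0.03, adjusted p = 5.83e-62), the smallest adjusted p of the genes named here. The constitutive cytosolic copies HSP81-2 and HSP90-3 were higher by 1.57 and 1.17, and the third copy beside them on chromosome 5, HSP90-4, by 0.24 without a call. These neighbours are near-identical, so that reads could be split among them in counting, and the same holds for close copies among the small heat shock protein and cytosolic HSP70 genes. CLPB1 (AT1G74310), which encodes the disaggregase HSP101, had 735, 732, 663 and 708 CPM in 35S::PIF4 and 30.9, 30.4, 30.8 and 28.8 CPM in Col-0 (log2 fold change 4.58, SE 0.04, adjusted p = 7.21e-58). Its mitochondrial and chloroplast relatives CLPB4 and CLPB3 were higher by 2.15 and 1.76. HSP90-5 of the chloroplast was called at 1.005 and lay at 0.996 without replicate 3 of 35S::PIF4. HSP90-7, the member of the endoplasmic reticulum, had a log2 fold change of −0.02.

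Co-chaperones and other known heat shock targets were higher in 13 of 17 cases, with a median log2 fold change of 2.41. FKBP65 (AT5G48570), a peptidyl-prolyl isomerase that binds HSP90, had 614, 582, 606 and 624 CPM in 35S::PIF4 and 23.499, 23.0, 23.1 and 21.1 CPM in Col-0 (log2 fold change 4.76, SE 0.03, adjusted p = 1.1e-58). The co-chaperone genes BAG6 (log2 fold change 4.14), HOP3 (3.89) and Fes1A (3.00), the thermotolerance gene HSA32 (2.60), the stress coactivator gene MBF1C (3.73), the transcription factor gene DREB2A (2.81) and the galactinol synthase gene GOLS1 (1.52) were also higher. HOP3 has relatives that are expressed without stress, and of these HOP1 had a log2 fold change of 0.02 and HOP2 (AT1G62740) of 0.86. APX2 (AT3G09640), an ascorbate peroxidase gene that is a classic target of HSFA2, had 20.3, 20.1, 19.97 and 20.3 CPM in 35S::PIF4 and 0, 0.0465, 0.0423 and 0.194 CPM in Col-0. It was the only ascorbate peroxidase or other peroxide-scavenging gene of 15 called higher apart from CAT2 (AT4G35090), a catalase gene with 171 ± 3.3 CPM in 35S::PIF4 and 85.2 ± 1.64 CPM in Col-0 (SD, n = 4 each).

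Of the heat shock transcription factors, 6 of 16 were higher, and all of these are known to be induced by heat. HSFA2 (AT2G26150), which sustains the response, had 217, 198, 195 and 206 CPM in 35S::PIF4 and 3.88, 6.37, 5.08 and 5.17 CPM in Col-0 (log2 fold change 5.35, SE 0.06, adjusted p = 2.67e-51). HSFA7A was higher by 6.17, with 22.6 to 26.1 CPM in 35S::PIF4 and 0.194 to 0.465 CPM in Col-0. HSFA7B had 710 counts in 35S::PIF4 and 2 in Col-0, a ratio of 385.7 with an exact 95% Poisson interval of 106.4 to 3191 that covers counting error only. HSFB1, HSFB2B and HSFB2A, which belong to the class without an activation domain, were higher by 2.25, 1.65 and 1.35.

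The factors that start the heat shock response stood apart from these. HSFA1A had 11.8, 11.7, 10.3 and 11.7 CPM in 35S::PIF4 and 11.2, 12.8, 11.2 and 10.2 CPM in Col-0, and these ranges overlapped. HSFA1B, HSFA1D and HSFA1E had log2 fold changes of −0.15, 0.32 and −0.08, and none was called.

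**Figure D2:**
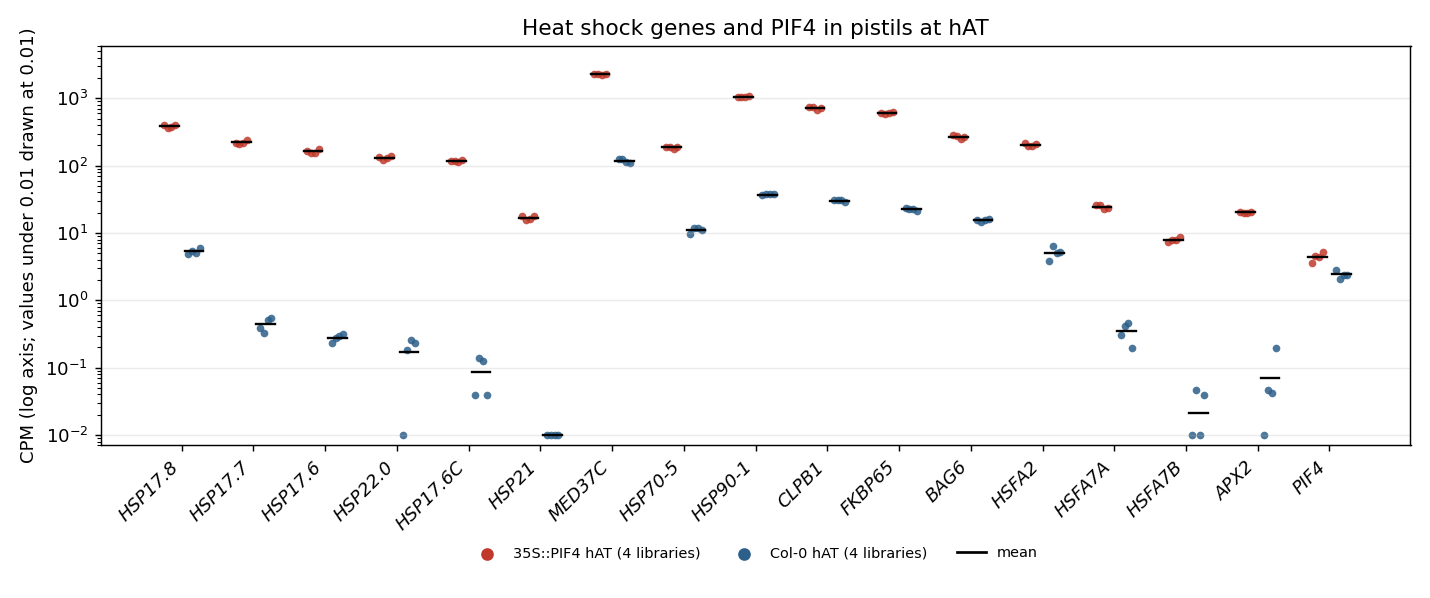
Level of heat shock genes and PIF4 in each pistil library at hAT, in CPM on a log axis, with 4 libraries of 35S::PIF4 (red) and 4 of Col-0 (blue) and the mean of each group as a bar. Values under 0.01 are drawn at 0.01. In HSP21 all 4 Col-0 libraries are at 0, and for PIF4 the groups lie close together at 3.55 to 5.17 CPM in 35S::PIF4 and 2.09 to 2.84 CPM in Col-0.

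Over the 5 heat shock lists, 78 of 84 members passed the filter on low counts, and some, such as HSP21 and HSFA7B, passed only through their level in 35S::PIF4. The 49 members called higher made up 62.8% of those tested, beside 1.61% of all genes, and 14.8% of all genes called higher. Their median log2 fold change over the 78 was 1.57. In 60 of the 78 every 35S::PIF4 library was above every Col-0 library, as in 16.7% of all tested genes. Among called genes with at least 5 CPM in 35S::PIF4, 16 of the 20 largest rises and 33 of the 50 largest were members. The summed level of all members was 23939 to 24618 CPM in 35S::PIF4 and 9531 to 9608 CPM in Col-0, so the groups did not overlap.

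Outside the heat shock lists, SR45A, a splicing regulator gene induced by heat, had 247, 224, 219.5 and 237 CPM in 35S::PIF4 and 67.5, 72.0, 66.9 and 67.5 CPM in Col-0 (log2 fold change 1.78, SE 0.03, adjusted p = 3.84e-40). Of 21 clock genes, 3 were higher, beside 1.61% of all genes, and the median log2 fold change of the list was 0.46. APRR9, a morning-phased repressor of the clock, had 40.6, 39.6, 40.7 and 42.1 CPM in 35S::PIF4 and 10.8, 12.0, 11.2 and 8.95 CPM in Col-0 (log2 fold change 1.95, SE 0.06, adjusted p = 1.63e-30). APRR7 and LNK1, which are also expressed by day, were higher by 1.23 and 1.21. The sources used here do not give the hour at which each group was collected, and its part in these 3 differences was not tested.

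Genes that PIF4 induces in seedlings were called in 3 of 23 tested cases, all higher, beside 1.61% of all genes, and the median of the list was 0.38. PRE5, a helix-loop-helix growth regulator gene, had 1.98, 2.15, 2.31 and 2.88 CPM in 35S::PIF4 and 0.777, 0.418, 0.423 and 0.661 CPM in Col-0 (log2 fold change 2.02, SE 0.25, adjusted p = 3.2e-09). SAUR19 and SAUR20, auxin-induced genes of cell expansion and near-identical neighbours, were higher by 1.096 and 1.05, the second by 0.953 without replicate 3 of Col-0. In the SAUR family 5 of 21 genes were higher and 0 lower, with SAUR62, SAUR63 and SAUR68 at 1.09, 1.28 and 1.18. IAA5, an early auxin response gene, was higher by 1.32, at 1.31 ± 0.271 CPM in 35S::PIF4 and 0.526 ± 0.144 CPM in Col-0 (SD, n = 4 each). It was 1 of 2 called among 25 tested Aux/IAA genes, both higher. XTH19, a cell wall remodelling enzyme gene, was higher by 1.99, with 2.78 to 4.79 CPM in 35S::PIF4 and 0.816 to 1.27 CPM in Col-0. In its family of 21 tested genes XTH19 was the 1 called higher and XTH3 the 1 called lower, with a median of −0.03, and of 19 expansin genes, which loosen cell walls, 0 were higher and 2 lower. PRE5 and IAA5 passed the filter on low counts only through 35S::PIF4, and XTH3 only through Col-0. In the lists of auxin biosynthesis, gibberellin, brassinosteroid, ethylene, cytokinin and jasmonate genes no member passed the fold threshold, with 8, 19, 13, 14, 11 and 17 genes tested. In lists this short that is near the 1.61% higher and 1.64% lower of all genes. Their medians were −0.01, −0.02, 0.05, −0.04, 0.37 and −0.30. Of the cytokinin genes 9 of 11 lay above 0, and of the jasmonate genes 2 of 17.

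**Figure D3:**
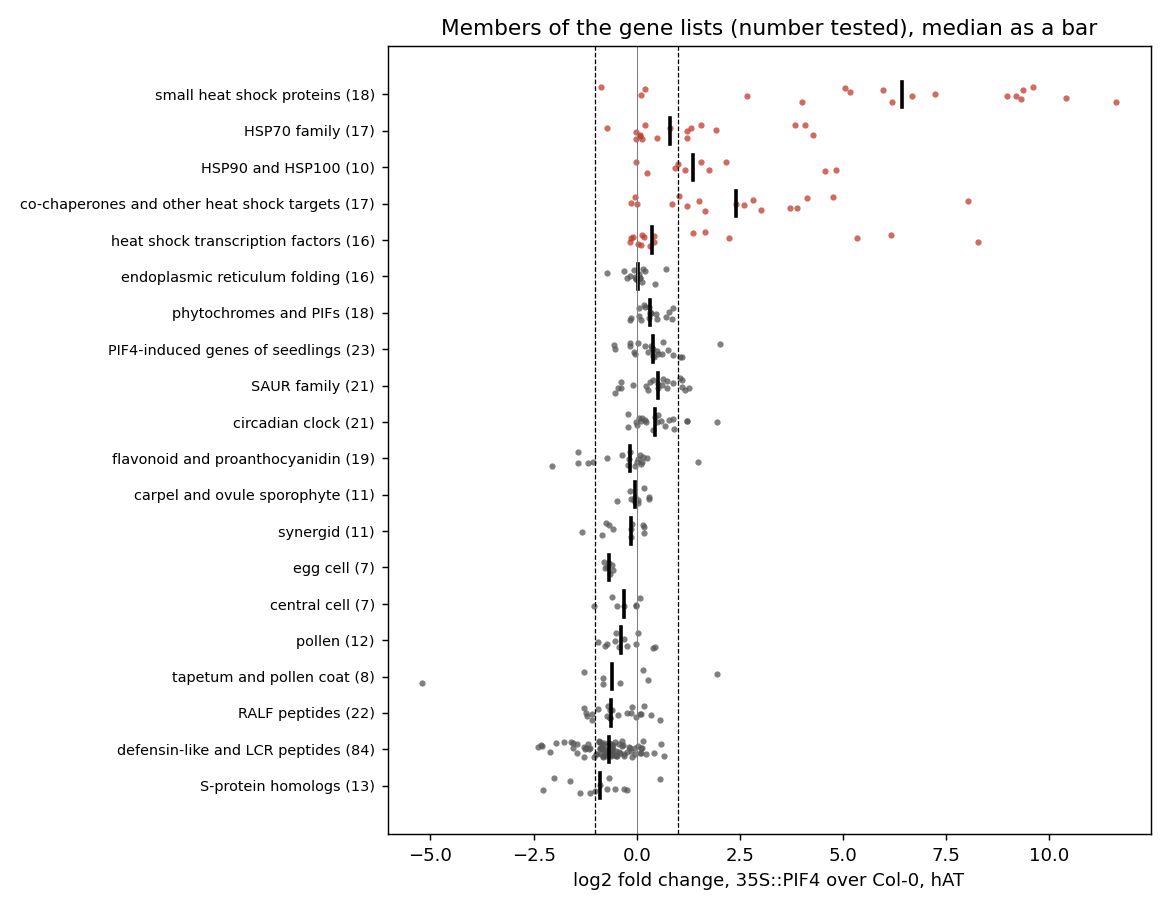
Log2 fold change of 35S::PIF4 over Col-0 at hAT for each tested member of 20 gene lists, with the number tested in brackets and the median as a bar. The 5 heat shock lists are at the top in red, where the median of the small heat shock proteins is 6.44, and the egg cell genes lie in a narrow group at −0.78 to −0.58.

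Genes with the largest falls did not belong to one list. Among the 12 largest falls with at least 5 CPM in Col-0 were QQS, JAL23, NAT5 and PORB. QQS, a gene found only in Arabidopsis thaliana that affects starch, had 2.03, 2.40, 2.26 and 1.51 CPM in 35S::PIF4 and 13.9, 14.5, 14.3 and 12.1 CPM in Col-0 (log2 fold change −2.71, SE 0.12, adjusted p = 5.67e-25). JAL23, a jacalin-type lectin gene, had 266, 258, 259.9 and 273 CPM in 35S::PIF4 and 924, 937, 918 and 906 CPM in Col-0 (log2 fold change −1.78, SE 0.02, adjusted p = 9.7e-47). Its 8 libraries fell into 2 tight groups far apart.

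NAT5, a nucleobase transporter gene, had 14.3, 15.0, 15.3 and 15.8 CPM in 35S::PIF4 and 54.6, 51.0, 58.2 and 52.7 CPM in Col-0 (log2 fold change −1.82, adjusted p = 1.92e-32). PORB, an enzyme gene of chlorophyll synthesis in the light, had 59.2 ± 3.61 CPM in 35S::PIF4 and 156 ± 3.98 CPM in Col-0 (SD, n = 4 each; log2 fold change −1.38, adjusted p = 2.06e-34). PCO2, which encodes a plant cysteine oxidase that acts in oxygen sensing and is itself induced by low oxygen, had 1.66 to 2.38 CPM in 35S::PIF4 and 5.75 to 7.53 CPM in Col-0. PCO1, its close relative named after its values were seen, fell by 1.28 on the log2 scale (adjusted p = 1.19e-18). DIN10 and DRM1 (AT1G28330), genes associated with sugar starvation and dormancy and also named after their values were seen, fell by 1.2995 and 1.12. DIN10 had 127 ± 3.76 CPM in 35S::PIF4 and 318 ± 11.1 CPM in Col-0 (SD, n = 4 each).

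Flavonoid and proanthocyanidin genes, whose products colour the seed coat, held 5 genes that fell and 1 that rose among 19 tested, beside 1.64% of all genes called lower and 1.61% called higher. BAN, the anthocyanidin reductase of the seed coat, had 3.36, 3.15, 2.64 and 3.16 CPM in 35S::PIF4 and 8.55, 8.09, 8.33 and 8.56 CPM in Col-0 (log2 fold change −1.42, SE 0.11, adjusted p = 6.86e-15). The upstream enzyme genes DFRA and LDOX fell by 2.06 and 1.06 (LDOX by 0.988 without replicate 2 of 35S::PIF4 and by 0.963 without replicate 3 of Col-0), the vacuolar proton pump gene AHA10 by 1.18 and the regulator gene WRKY44 by 1.43. TT10, a laccase gene that acts late in seed coat browning, rose by 1.49, with 0.824 to 1.24 CPM in 35S::PIF4 and 0.194 to 0.837 CPM in Col-0, ranges that overlapped. DFRA passed the filter on low counts only through Col-0 and TT10 only through 35S::PIF4. The median of the list was −0.16.

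Markers of the pistil and its cell types were set beside these changes. In bulk pistils fewer cells of a type and less RNA per cell cannot be told apart. Of 11 tested genes of carpel and ovule sporophyte, which include AG, STK, SHP1 and SHP2, none was called, and their summed level was 582 to 610.0 CPM in 35S::PIF4 and 601 to 628 CPM in Col-0. These defining markers of the labelled tissue were thus present in all 8 libraries. Genes of the ovule integuments, BEL1 and INO, had log2 fold changes of 0.18 and 0.30, whereas CRC, AG and STK had −0.48, −0.17 and −0.13. Over the 11 genes of the list the median was −0.04, with 5 above 0.

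All 7 egg cell genes lay between −0.78 and −0.58 in log2 fold change, so that none passed the fold threshold though none overlapped between genotypes, as was true of 21.4% of all tested genes in the downward direction. EC1.3, which encodes a secreted protein that activates sperm, had 9.48, 8.87, 9.32 and 11.1 CPM in 35S::PIF4 and 16.2, 16.2, 16.1 and 16.5 CPM in Col-0 (log2 fold change −0.72, SE 0.08, adjusted p = 8.4e-11). EC1.1, EC1.2, EC1.4 and EC1.5 had −0.58, −0.61, −0.65 and −0.67. The summed level of the egg cell list was 69.7 to 78.3 CPM in 35S::PIF4, 86.8 to 95.2 CPM in phyB at hAT and 120 to 127 CPM in Col-0, with no overlap between genotypes.

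In the synergids, which guide the pollen tube, LURE1.1 was the 1 gene of 11 called. This attractant gene (AT5G43285) had 4.42, 4.39, 5.18 and 5.22 CPM in 35S::PIF4 and 12.6, 12.7, 13.1 and 10.3 CPM in Col-0 (log2 fold change −1.32, SE 0.10, adjusted p = 1.21e-15). Its close copies LURE1.2, LURE1.3, LURE1.4 and LURE1.5 had log2 fold changes of −0.57, −0.74, −0.67 and −0.84, each without overlap between genotypes and without passing the fold threshold. The regulator of these genes, MYB98, had 2.76 to 3.48 CPM in 35S::PIF4 and 2.76 to 4.01 CPM in Col-0 (log2 fold change −0.14, adjusted p = 0.48), and its ranges overlapped.

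The central cell gave a mixed picture. FIS2, a Polycomb gene that restrains endosperm growth, fell by 1.05 on the log2 scale, at 1.54 ± 0.172 CPM in 35S::PIF4 and 3.25 ± 0.44 CPM in Col-0 (SD, n = 4 each). Without replicate 1 of 35S::PIF4 or replicate 2 of Col-0 it lay just under the fold threshold, at −0.98 in both cases. AGL80 had a log2 fold change of −0.01, which turned positive without some libraries, and HDG6 (FWA) of −0.59, and their ranges overlapped.

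**Figure D4:**
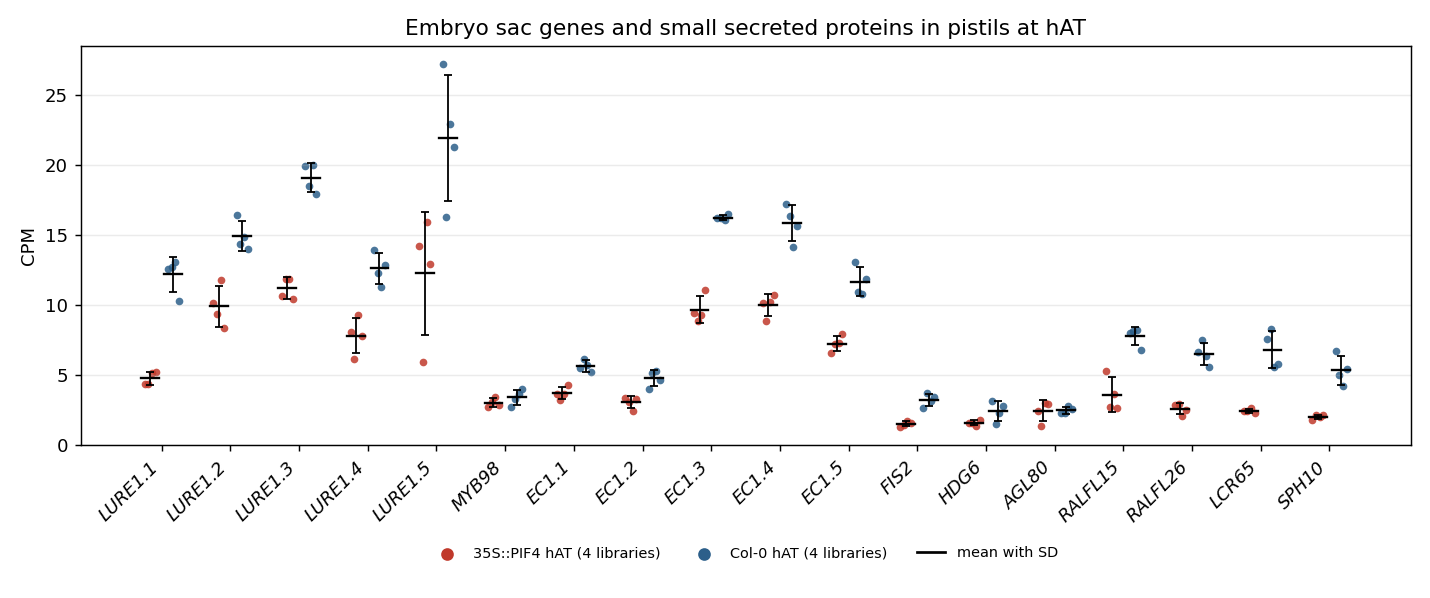
Level in CPM of marker genes of the embryo sac and of small secreted proteins in the 4 libraries of 35S::PIF4 (red) and the 4 of Col-0 (blue) at hAT, with the mean and SD of each group. The 5 EC1 genes and the 5 LURE1 genes are lower in 35S::PIF4 in each case, as with EC1.3 at 8.87 to 11.1 CPM against 16.1 to 16.5 CPM in Col-0, while MYB98 and AGL80 overlap.

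Of 183 defensin-like and LCR genes, 84 passed the filter on low counts, of which 19 were lower and 0 higher, beside 1.64% of all genes called lower, and the median log2 fold change was −0.67. Some of the 84, such as AT1G63522 with 0.283 to 0.414 CPM in 35S::PIF4 and 1.13 to 2.20 CPM in Col-0, passed only through their level in Col-0 and so had to differ, and the count and the median describe the tested members alone. Their summed level over all members was 663 to 732 CPM in 35S::PIF4 and 1015 to 1047 CPM in Col-0. LCR65 had 2.44, 2.44, 2.64 and 2.29 CPM in 35S::PIF4 and 7.61, 8.32, 5.63 and 5.83 CPM in Col-0 (log2 fold change −1.45, SE 0.14, adjusted p = 1.9e-12). LCR19 fell by 1.75, and the steepest falls of the list, in AT1G69818, AT1G63522 and AT1G49715, were 2.38, 2.31 and 2.29.

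RALF genes, which encode peptide ligands of cell wall receptors, were lower in 5 of 22 cases and higher in 0, beside 1.64% of all genes called lower, with a median log2 fold change of −0.62. RALFL26 had 2.85, 2.98, 2.07 and 2.56 CPM in 35S::PIF4 and 6.68, 7.53, 6.39 and 5.601 CPM in Col-0 (log2 fold change −1.29, SE 0.13, adjusted p = 2.71e-11). RALFL15, RALFL10 and RALFL25 were lower by less than 1 on the log2 scale without 1 of the libraries, namely −0.98 and −0.97 for RALFL15 without replicate 2 or 4 of 35S::PIF4, −0.94 for RALFL10 without replicate 2 of 35S::PIF4 and −0.996 for RALFL25 without replicate 2 of Col-0. S-protein homologs, secreted proteins related to the self-incompatibility factor of poppy, were lower in 6 of 13 tested cases (24 members in all), beside the same 1.64%, with a median of −0.89, as for SPH10 with 1.84 to 2.15 CPM in 35S::PIF4 and 4.23 to 6.72 CPM in Col-0. Of these, members such as SPH4 (0.275 to 0.456 CPM in 35S::PIF4 and 1.02 to 2.23 CPM in Col-0) and SPH11 (0.275 to 0.565 CPM in 35S::PIF4 and 1.75 to 1.98 CPM in Col-0) likewise passed the filter only through Col-0.

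Genes of other floral tissues moved with these in part, and their part in the falls was not tested. The pollen list held 0 called genes of 12, and its summed level was 160 to 175 CPM in 35S::PIF4 and 214 to 227 CPM in Col-0, ranges that did not overlap. PME5, a pectin methylesterase gene of pollen tubes known as VGD1, had 71.1 ± 3.46 CPM in 35S::PIF4 and 97.4 ± 2.51 CPM in Col-0 (SD, n = 4 each). The tapetum and pollen coat list summed to 54.3 to 58.1 CPM in 35S::PIF4 and 61.4 to 65.0 CPM in Col-0, with EXL4 (AT1G75910) and EXL6 (AT1G75930) lower, CYP704B1 (named after its values were seen) higher and 5 of the 8 tested not called. EXL6 overlapped between genotypes and lay at −0.97 without replicate 4 of 35S::PIF4. EXL4, EXL6 and CYP704B1 passed the filter on low counts only through the genotype in which they are higher. Of the 19 genes of that list, 2 had no count in any 35S::PIF4 library and 4 none in any Col-0 library. Sepal, petal and stamen identity genes summed to 204 to 217 CPM in 35S::PIF4 and 206 to 214 CPM in Col-0, which overlapped. Core histone genes, which track DNA replication, were not called in any of 32 cases, with a median of −0.54. None of 190 cytosolic ribosomal protein genes was called, with a median of 0.00.

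At hAT, 35S::PIF4 was also set against phyB, in which PIF4 is released from phytochrome B. Of 20845 genes tested over the 12 libraries at hAT, 559 (2.68%) were higher in 35S::PIF4 and 235 (1.13%) lower, each against phyB, so that 70.4% of the calls were rises. With an offset for gene length this share was 63%. Markers of other floral tissues differed too: the sepal, petal and stamen identity genes summed to 204 to 217 CPM in 35S::PIF4 and 103 to 126 CPM in phyB, and the pollen genes to 160 to 175 CPM in 35S::PIF4 and 95.8 to 187 CPM in phyB. Their part in the differences from phyB was not tested. Heat shock genes made up 39 of those higher and 0 of those lower. MED37C had a log2 fold change of 2.16 over phyB (adjusted p = 4.39e-16), HSP90-1 of 3.03 (adjusted p = 1.46e-20), HSP17.6C of 7.30 (adjusted p = 1.01e-25) and HSFA2 of 3.31 (adjusted p = 1.33e-16). The mean level in phyB lay between the other genotypes for these genes, at 509 ± 99.7 CPM for MED37C, 129.8 ± 21.3 for HSP90-1, 0.733 ± 0.236 for HSP17.6C and 21.1 ± 6.09 for HSFA2 (SD, n = 4). Against Col-0 at hAT, with the same Col-0 libraries, phyB had 18 of the 78 heat shock genes higher and 0 lower, beside 1.6% of all genes higher and 3.06% lower.

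Small secreted proteins gave another order. Defensin-like genes were lower in phyB than in Col-0 in 55 of 84 cases with a median of −1.14, beside 3.06% of all genes. In 35S::PIF4 against the same Col-0 libraries, 19 of 84 were lower with a median of −0.67, beside 1.64% of all genes. Some of the 84 passed the filter on low counts only through Col-0, so both counts describe the tested members alone. Set against phyB directly, 35S::PIF4 had 13 of these genes higher and 3 lower, beside 2.68% and 1.13% of all genes. LURE1.1 and DIN10, by contrast, differed between 35S::PIF4 and phyB by −0.08 and −0.01 (adjusted p = 0.685 and 0.956, edgeR's quasi-likelihood test), with SE of 0.15 and 0.0873. The close copies of LURE1.1 varied: LURE1.2 was called higher in 35S::PIF4 than in phyB (1.04, adjusted p = 2.49e-05), LURE1.5 differed by 0.97 (adjusted p = 0.000505) under the fold threshold, and LURE1.3 and LURE1.4 by 0.22 and 0.26 (adjusted p = 0.0768 and 0.134). Of the 332 genes that rose against Col-0, 148 (44.6%) were also called higher than in phyB, and of the 338 that fell, 45 (13.3%) were also called lower than in phyB. Those counts share the 35S::PIF4 libraries.

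At nAT the heat shock genes showed no such rise. Their summed level was 10606 to 11892 CPM in 35S::PIF4 and 14125 to 15957 CPM in Col-0 at nAT, and 7 members were called higher and 6 lower in 35S::PIF4, beside 19.2% of all genes called higher and 12.2% lower at nAT. HSP17.8 had 5.68 ± 1.31 CPM in 35S::PIF4 at nAT and 9.63 ± 1.3 CPM in Col-0 at nAT, and MED37C 8.52 ± 2.13 CPM and 15.2 ± 3.93 CPM in the same groups (SD, n = 4 each). The difference between the effect of 35S::PIF4 at hAT and that at nAT was tested over 16 libraries as an interaction. In this test 46 heat shock genes were higher and 3 lower, beside 2483 (11.8%) higher and 4042 (19.3%) lower of 20966 genes. HSP17.8 gave a difference of 6.95 (SE 0.19, adjusted p = 9.5e-15), MED37C of 5.12 (SE 0.22, adjusted p = 1.9e-12) and HSP90-1 of 4.32 (SE 0.10, adjusted p = 2.15e-15).

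The 4 Col-0 libraries at nAT stood apart from the others. Their counts fell on genes with a mean length of 1612 to 1804 bases, and their 10 most abundant genes took 6.42% to 6.62% of the counts, against 3.28% to 3.86% in the other 20 libraries. The part of this in the interaction values was not tested beyond the offset for gene length, under which 1829 genes were higher and 2809 lower. The comparison of 35S::PIF4 with Col-0 at hAT does not use those libraries.

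The effects at both temperatures compare separate libraries and could be set side by side. The calls at nAT come from the fit over 16 libraries, whose filter and spread also use the libraries at hAT. Among the genes tested at hAT, 19.3% were called higher and 11.8% lower at nAT. Of the 332 genes higher at hAT, 72 (21.69% of them, and 1.81% of the 3978 higher at nAT among genes tested at both) were also higher at nAT, which is near the 19.3% of all, and 53 (16%) were lower there, beside 11.8% of all. Of the 338 lower at hAT, 121 (35.8%, and 4.97% of the 2433 lower at nAT) were also lower at nAT, beside 11.8% of all, and 51 (15.1%) were higher, beside 19.3% of all. JAL23 and NAT5 were lower at both temperatures, with log2 fold changes at nAT of −1.87 and −1.80. QQS went the other way, with 2.65 ± 0.546 CPM in 35S::PIF4 and 1.3 ± 0.307 CPM in Col-0 at nAT (SD, n = 4 each), and the difference between its effects was −3.705 (adjusted p = 1.15e-09). The egg cell list summed at nAT to 8.56 to 14.0 CPM in 35S::PIF4 and 6.52 to 8.7 CPM in Col-0.

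**Figure D5:**
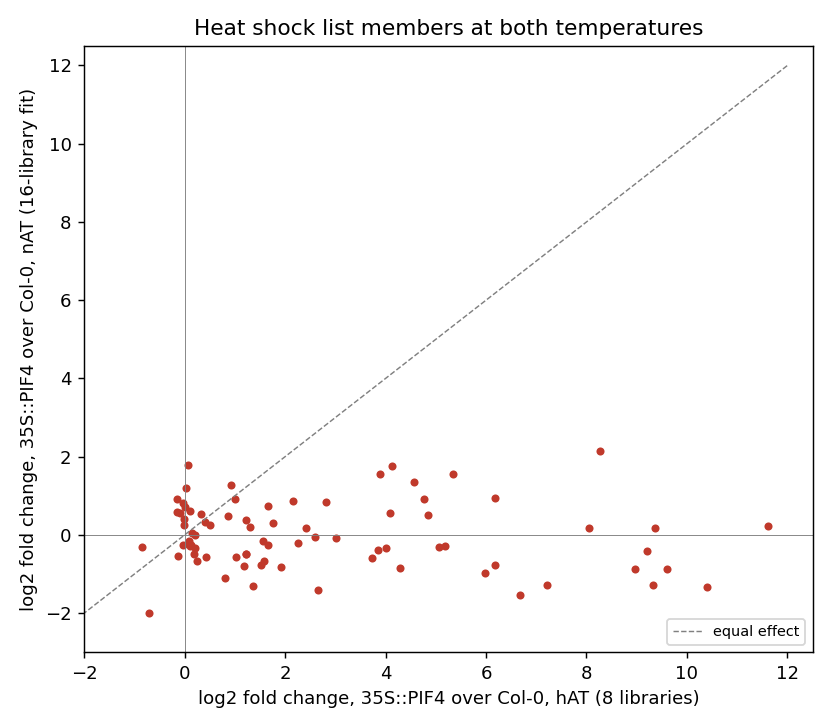
Each point is 1 heat shock gene tested at both temperatures, with the log2 fold change of 35S::PIF4 over Col-0 at hAT (8 libraries) on the horizontal axis and at nAT (16-library fit) on the vertical axis. The dashed line marks an equal effect, and most genes with large rises at hAT lie far below it, as HSP17.8 with 6.19 at hAT and −0.78 at nAT.

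Finally, 18 genes were near silent in one genotype (under 0.1 CPM) and on in the other (at least 1 CPM). Besides HSP21, HSP17.6C, HSP17.4A, HSFA7B and APX2, the genes on in 35S::PIF4 included AT1G71000, a gene for a DnaJ-domain protein of chromosome 1 that was not among the lists. It had 13.3, 13.2, 14.1 and 14.9 CPM in 35S::PIF4 and 0.0388, 0, 0 and 0 CPM in Col-0, 1231 counts against 1 (ratio 1337, exact 95% Poisson interval 239.6 to 52860 for counting error only). AT1G21940 and the late embryogenesis gene LEA7 were on in 35S::PIF4 at 2.96 ± 0.387 CPM and 1.02 ± 0.146 CPM (SD, n = 4), against 0.0891 ± 0.102 CPM and 0.0718 ± 0.0675 CPM in Col-0. At nAT these 3 genes averaged 0.0429 CPM or less in 35S::PIF4 and 0.101 CPM or less in Col-0.

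Another group of these genes differed by genotype at both temperatures. A transcript outside the annotation on chromosome 5 (14075560 to 14090005) had 33.2, 33.3, 34.6 and 36.7 CPM in 35S::PIF4 at hAT and at most 0.117 CPM in any Col-0 library at hAT, and 25.6 ± 1.51 CPM in 35S::PIF4 against 0 CPM in Col-0 at nAT. It was on in phyB as well, at 61.2 ± 4.07 CPM (SD, n = 4, hAT). The long noncoding RNA AT3G05955 and the retrotransposon gene AT3G44570 were also on in 35S::PIF4 and phyB, with log2 differences between these of −0.04 and −0.25 at hAT (adjusted p = 0.876 and 0.598), and without a count in Col-0. They were at least 114.8-fold and 34.4-fold higher in 35S::PIF4 than in Col-0 at hAT by the floor of 3 counts over the group. AT1G64795 was on in 35S::PIF4 at 12.1 ± 2.09 CPM and near silent in phyB and Col-0, at 0.0535 CPM and 0.0389 CPM.

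The reverse held for 6 genes. AT3G05170, which the files describe as a phosphoglycerate mutase-like gene, had no count in 35S::PIF4 and 4.47, 4.23, 4.44 and 4.59 CPM in Col-0 at hAT, at least 131.6-fold lower in 35S::PIF4. In phyB it was on, at 5.65 ± 0.553 CPM. AT1G75945 had 0.0921, 0, 0 and 0 CPM in 35S::PIF4 and 21.1, 24.2, 19.96 and 20.6 CPM in Col-0, and it was as low in phyB, at 0.0297 CPM. Near it on chromosome 1 (28515245 to 28515916) lie BGLU20 and EXL4, which had 0.0235 and 0.0426 CPM on average in 35S::PIF4 and 1.3 and 1.89 CPM in Col-0. Unlike AT1G75945, BGLU20 and EXL4 were on in phyB at nAT, at 12.8 CPM each, and had 0.839 and 0.426 CPM in phyB at hAT. In 35S::PIF4 at nAT they had 0.397 and 0.525 CPM. EXL6, which lies between them, averaged 0.486 CPM in 35S::PIF4 at hAT. EXL4 and EXL6 are also in the tapetum and pollen coat list. A shared cause was not tested. AT1G67105, a noncoding RNA gene, and XTH3 completed the 6, with log2 fold changes of −7.03 and −5.29. The sources used here do not say whether the counting used the strand, so reads of overlapping genes on both strands cannot be told apart.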

How the data were processed

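RNA of pistils was sequenced from 24 libraries (3 genotypes at 2 temperatures, 4 replicates each). The counts per gene were deposited by the authors as whole numbers: reads trimmed with fqtools were mapped to TAIR10 with the Araport11 annotation (with an aligner that the sources used here do not name) and counted with featureCounts. Gene lengths (other values) were deposited by the authors beside the counts. A second table of FPKM values was not used, because the counts carry the depth.

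Genes were tested with edgeR 4.0.16 in R 4.3.3 (filterByExpr, TMM, quasi-likelihood F test, Benjamini-Hochberg adjustment over all tested genes). The comparison with Col-0 at hAT used 8 libraries, that with phyB the 12 at hAT, and the interaction and the effects at nAT 16. Calls needed an adjusted p under 0.05 and a log2 fold change of at least 1 in size, the rule of the study's methods. The SE is the log2 fold change divided by the square root of F. Levels are CPM on the TMM scale of all 24 libraries, on which log2 ratios differ from the fit by a median of −0.023. Per kilobase values divide by gene length. P-values measure the spread between these replicates. Intervals and floors (3 counts) cover counting error only.

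Replicate numbers are shared by the groups of the labels. Deviations of same-numbered libraries correlated at 0.028, −0.037, −0.0102 and 0.00382, so the numbers were not taken as pairs. Replicate libraries of a group differed by more than counting noise (chi-square per degree of freedom 2.15 to 3.07 in 35S::PIF4 and 1.84 to 2.53 in Col-0).

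The lists and the genes described were chosen with earlier results of these data known. Named genes are the 12 largest rises and 12 largest falls with a symbol, at least 5 CPM and no overlap, up to 6 called members of each list, the heat shock lists, PIF4 and its relatives, cell type markers and genes on in one genotype. Exceptions are marked. Promoters are the 250 bases before the gene start in the RefSeq TAIR10 genome, whose gene positions were the same as in the files for 99.95% of 32548 genes. Scripts were tested on simulated data. Alternatives were RLE size factors, DESeq2 1.42.0, other filters, more libraries in the fit, a gene length offset, a replicate block, the adjusted p alone and leaving out each library.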

Additional observations from a re-analysis of the deposited data

Results flagged for a closer look

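Among 314 groups of 4 libraries (157 genes in 2 genotypes at hAT), 18 held a library far from the other 3 by Dixon's test, and chance gives about 1 such group in 20. Among the genes that rose, the lone library was high in HSP17.6B (1.359 CPM in replicate 1 of Col-0, the others at most 0.8946), SR45A (72 CPM in replicate 2 of Col-0, the others at most 67.55), LEA7 (1.243 CPM in replicate 1 of 35S::PIF4, the others at most 0.9614) and CYP704B1 (1.083 CPM in replicate 3 of 35S::PIF4, the others at most 0.5494). It was low in HSP70-5 (175.2 CPM in replicate 3 of 35S::PIF4, the others 189.5 to 191.5), BAG6 (14.46 CPM in replicate 2 of Col-0, the others 15.77 to 16.03), GOLS1 (42 CPM in replicate 3 of Col-0, the others 48.43 to 49.09) and SAUR63 (1.673 CPM in replicate 4 of Col-0, the others 2.292 to 2.417). Among the genes that fell, STP11 had 3.453 CPM in replicate 1 of 35S::PIF4 against 2.543 to 2.611 CPM in the others, AT1G69818 had 0.6631 CPM in replicate 2 of 35S::PIF4 against 0.5494 to 0.5651 CPM, and RALFL15 had 6.846 CPM in replicate 4 of Col-0 against 8.04 to 8.248 CPM.

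Of the genes not called, HSFA1A had 10.27 CPM and BEL1 29.95 CPM in replicate 3 of 35S::PIF4, below the others at 11.69 to 11.83 and 31.54 to 31.83 CPM. SHP2 had 40.72 CPM in replicate 2 of Col-0, below the others at 42.55 to 42.69 CPM. In 4 near-silent groups a single library held the only counts, namely BGLU20 (0.09418 CPM in replicate 3 of 35S::PIF4), AT1G75945 (0.09208 CPM in replicate 1 of 35S::PIF4), AT1G71000 (0.03884 CPM in replicate 1 of Col-0) and AT1G64795 (0.1556 CPM in replicate 4 of Col-0).

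The effect of 35S::PIF4 differed between the temperatures, at an adjusted p under 0.05, for 16 of 19 genes followed for it. The test was the interaction term of edgeR's quasi-likelihood fit over 16 libraries. By the same test and threshold, 14285 of all 20966 genes differed. Genes among the 19 were named in part for their effect at hAT, and the same hAT libraries enter the test. The count is therefore not independent of the effects at hAT. Each difference is the log2 effect at hAT minus that at nAT. Among heat shock genes it was 11.71 for HSP17.6C (adjusted p = 2.66e-06), 10.45 for HSP22.0 (adjusted p = 3.98e-07), 6.95 for HSP17.8 (adjusted p = 9.5e-15), 5.12 for MED37C (adjusted p = 1.9e-12), 4.318 for HSP90-1 (adjusted p = 2.15e-15), 3.207 for CLPB1 (adjusted p = 1.94e-10) and 3.776 for HSFA2 (adjusted p = 4.7e-07). For HSP17.6C and HSP22.0 the size is imprecise, with SE of 1.55 and 1.18, as both were near silent at nAT. HSP17.6C averaged 0.0301 CPM in 35S::PIF4 and 0.082 CPM in Col-0 there, and HSP22.0 0.0841 CPM and 0.139 CPM. HSFA2 and CLPB1 were higher in 35S::PIF4 at nAT as well, with log2 effects of 1.55 and 1.35 there. For APX2 the difference was 7.831 (SE 2.74, adjusted p = 0.0169), and without replicate 3 of Col-0 at nAT it was 5.848 with adjusted p = 0.95.

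Among growth genes the difference was 2.468 for PRE5 (adjusted p = 6.98e-06) and 2.739 for SAUR19 (adjusted p = 3.14e-05), which had log2 effects of −0.46 and −1.66 at nAT. For PIF4 itself it was −0.5992 (adjusted p = 0.0391), a result lost with RLE size factors and with the gene length offset. Genes that fell at hAT also gave differences, namely BAN (difference −1.691, adjusted p = 0.000297), QQS (−3.705, adjusted p = 1.15e-09), STP11 (−4.251, adjusted p = 3.35e-06), DIN10 (−1.945, adjusted p = 0.000188) and LURE1.1 (−2.309, adjusted p = 0.00568). Of these only STP11 was called at nAT (log2 effect 2.87, higher), while BAN and LURE1.1 had adjusted p of 0.549 and 0.193 there, and DIN10 and QQS lay under the fold threshold at 0.63 and 0.98. These values use the Col-0 libraries at nAT, whose counts fell on shorter genes than those of all other libraries, and the part of this was not tested beyond the gene length offset.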

How the results depend on the processing

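The count of genes lower at hAT was 510 with no filter on low counts, against 338 with it, and with the adjusted p alone 4473 genes were higher and 4458 lower. With RLE size factors, DESeq2, at least 1 CPM, 12 or 24 libraries in the fit or the gene length offset, the counts stayed within 260 to 379 higher and 246 to 406 lower, and heat shock genes called higher at 48 or 49. Leaving out each library gave 337 to 364 genes higher, 338 to 371 lower, 48 to 49 heat shock genes, 17 to 19 genes on in one genotype, 801 to 897 genes called against phyB and 5849 to 6966 in the interaction. With the replicate block 333 genes were higher and 340 lower (332 and 314 with the gene length offset), and no call of the 157 genes followed changed under the block alone. The numbers do not pair the samples, so this is no paired result. Values near 0 changed sign. HOP1 was −0.0039 with all 24 libraries and ran between −0.0060 and 0.0469 without single libraries, HSFA1A between −0.0187 and 0.0933 and AGL80 between −0.125 and 0.196. The difference between temperatures for NAT5 (−0.04) was 0.0491 with RLE size factors, 0.518 with the gene length offset and 0.517 with the block and that offset, and ran between −0.113 and 0.0143 without single libraries, and that for JAL23 ran between −0.0316 and 0.158. The causes were not tested. Leaving out libraries took 22 single-gene results below a threshold, most by moving a log2 fold change just under 1 in size. Depth limits genes near 0.1 CPM, where a library holds only a few counts.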
